A study of Mus musculus with 18 samples.

Results

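The loci described here are the accessible regions of 42 genes of the cell cycle in lung endothelial cells (ECs), from ATAC-seq of 18 mice. ATAC-seq marks open chromatin, since the transposase Tn5 cuts accessible DNA and a peak forms where its fragments pile up. Peaks of the 18 lists that shared 1 bp or more were joined into regions, those with a peak in at least 2 lists were kept, and each region was given to the gene whose RefSeq transcription start site (TSS) lay nearest to its midpoint. Of 47338 regions, 83 were given to 40 of the 42 genes, and the genes came from a named list.

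The mice were Col1α1-GFP transgenic FVB animals of both sexes, in 4 groups that differed in age and treatment. Young Sham (n = 5) and Young Bleo (n = 4) mice were 2 months old, and Aged Sham (n = 4) and Aged Bleo (n = 5) mice were 18 months old. Bleo mice received intratracheal bleomycin at 1 U/kg, a drug that injures the lung and leads to fibrosis, Sham mice received PBS, and lungs were taken at day 30. In every group the sorted cells were CD31+ and lacked CD45, EpCAM and the GFP that the collagen promoter drives in fibroblasts. Each list came from the pooled ECs of 1 mouse, so a site open in fewer cells and a site less open in each cell cannot be told apart.

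The division cycle runs from the licensing of replication origins in G1, through DNA synthesis in S phase, to chromosome segregation in mitosis. Genes for origin licensing and DNA synthesis are classic targets of E2F factors, whereas many mitotic genes carry CCAAT boxes, bound by NF-Y, and a cell cycle homology region (CHR), through which the MuvB complexes act. Most ECs of the adult lung are quiescent, and they can re-enter the cycle after injury.

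The lists held 21050 to 40883 nuclear peaks, with Aged Bleo 4 the shortest, and a background coverage of 1.02 to 1.78 fragments. Fold enrichment over local background was therefore compared between samples mainly as a percentile within its own list, where 100 marks the most enriched peak. Of 8 EC markers, all had a start-site region, among them Tie1 and Kdr in all 18 lists, though Tek had a peak in 15 lists and Egfl7 in 2. None of 5 leukocyte markers had one, against 3 of 5 epithelial markers (Hopx, Foxj1 and Epcam) and 1 of 5 fibroblast and mural markers (Pdgfra). Hopx and Foxj1 also had a peak in all 18 lists. The median percentile was 44.0 at the EC marker start sites, 63.7 at the epithelial ones and 44.7 at Pdgfra. Away from start sites, 2 of the 5 leukocyte markers had a region. Of these 2 regions, 1 was called higher and 0 lower in Young Bleo against Young Sham (Fisher's exact test, unadjusted p of at most 0.05). Over all regions 3.98% were called higher and 1.96% lower. No epithelial or fibroblast and mural region was called. The part of such other cells in the values below was not tested.

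Before the values, the promoter sequences show what these loci share. RefSeq promoters (GRCm38.p6, 250 bases before to 50 bases after the TSS) were at hand for 34 of the 42 genes. The genes with no entry were Ccna2, Aurkb, Kif20a, Mcm4, Ccne2, Gmnn, Foxm1 and Tpx2. The letters CCAAT were found on either strand in 26 of 34 members (76.5%), against 41.1% of the 27025 genes in the table. A CHR, searched as TTTGAA or TTCGAA, was found in 18 members (52.9%) against 21.7% of genes, and all 18 also held CCAAT, a pair found in 9.65% of genes. An E2F core, searched as TTTGGCGC, TTTCCCGC, TTTCGCGC or GGCGGGAA on either strand, was found in 9 members (26.5%) against 4.00% of genes. The E2F core and the CHR differed by role, whereas CCAAT was frequent in both sets. Of 11 genes for licensing and DNA synthesis, 7 held an E2F core, 2 a CHR and 8 CCAAT. Of 19 mitotic genes 1 held an E2F core, 15 a CHR and 17 CCAAT. These are matches of letters and not measured binding, and the TSS of the promoter table differed from the one used for the regions at E2f1 and Cdc6.

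The 150 bases before the TSS are printed for 6 promoters, since they show these arrangements and include promoters, such as those of Kif11 and Cdc20, whose strength is compared between groups below. Capitals mark the CCAAT box, the CHR and the E2F cores, all read on either strand, and each sequence runs 5′ to 3′ toward its TSS. Mcm6 (minus strand, chr1:128359706-128359855) encodes a subunit of the replicative helicase and held overlapping and separate E2F cores. Cdk1 (minus strand, chr10:69352913-69353062), the kinase that drives mitotic entry, held all 3 kinds of match. Ccnb1 (minus strand, chr13:100786487-100786636), its cyclin partner, held 2 CCAAT boxes in this stretch and neither CHR sequence. Cdc20 (minus strand, chr4:118437344-118437493) and Ube2c (plus strand, chr2:164769779-164769928) are an activator and an E2 enzyme of the anaphase-promoting complex (APC/C). Kif11 (plus strand, chr19:37376232-37376381) encodes the motor that separates spindle poles.
Mcm6: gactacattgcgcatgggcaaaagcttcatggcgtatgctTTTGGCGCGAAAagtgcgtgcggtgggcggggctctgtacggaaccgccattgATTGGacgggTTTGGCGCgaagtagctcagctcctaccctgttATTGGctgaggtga
Cdk1: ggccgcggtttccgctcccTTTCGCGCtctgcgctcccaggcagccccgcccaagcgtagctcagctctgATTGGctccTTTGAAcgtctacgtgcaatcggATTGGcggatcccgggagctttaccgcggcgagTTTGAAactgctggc
Ccnb1: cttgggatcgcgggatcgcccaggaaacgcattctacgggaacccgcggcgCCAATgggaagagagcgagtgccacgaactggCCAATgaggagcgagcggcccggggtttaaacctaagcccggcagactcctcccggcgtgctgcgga
Cdc20: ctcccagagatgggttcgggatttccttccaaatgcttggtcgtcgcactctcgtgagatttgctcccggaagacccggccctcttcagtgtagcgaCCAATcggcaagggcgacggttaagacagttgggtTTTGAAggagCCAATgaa
Ube2c: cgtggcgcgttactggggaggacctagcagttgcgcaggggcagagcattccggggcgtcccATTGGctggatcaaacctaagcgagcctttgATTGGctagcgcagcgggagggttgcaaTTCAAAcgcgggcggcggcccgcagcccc
Kif11: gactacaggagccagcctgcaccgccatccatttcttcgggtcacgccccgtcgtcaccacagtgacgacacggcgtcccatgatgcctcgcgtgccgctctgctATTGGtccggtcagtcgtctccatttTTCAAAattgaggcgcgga

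The start sites of these genes were open in ECs of every group. A start-site region, within 1 kb of the TSS, was found for 40 members, and 37 of them (92.5%) carried a peak in all 18 lists, against 80.5% of the start-site regions of 11933 genes. Their median percentile was 91.6, against 75.0 over all genes, and 22 of 40 (55.0%) had a mean percentile over 90, against 21.8%. Group medians over the members were 91.9 in Young Sham, 93.6 in Young Bleo, 90.5 in Aged Sham and 90.6 in Aged Bleo, and over all genes 77.7, 78.3, 74.4 and 74.3. Depth was high at these sites, with a median of 113 fragments at the summit against 24 at the other member regions. Summits lay a median of 71.5 bp upstream of the TSS, with 33 upstream, 7 downstream and 36 within 150 bp of it. In the 200 bases around the summit, CCAAT was found in 31 of the 40 regions (77.5%), against 33.5% of all promoter regions, and median GC content was 63.0% against 66.5% at all start sites.

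**Figure D1:**
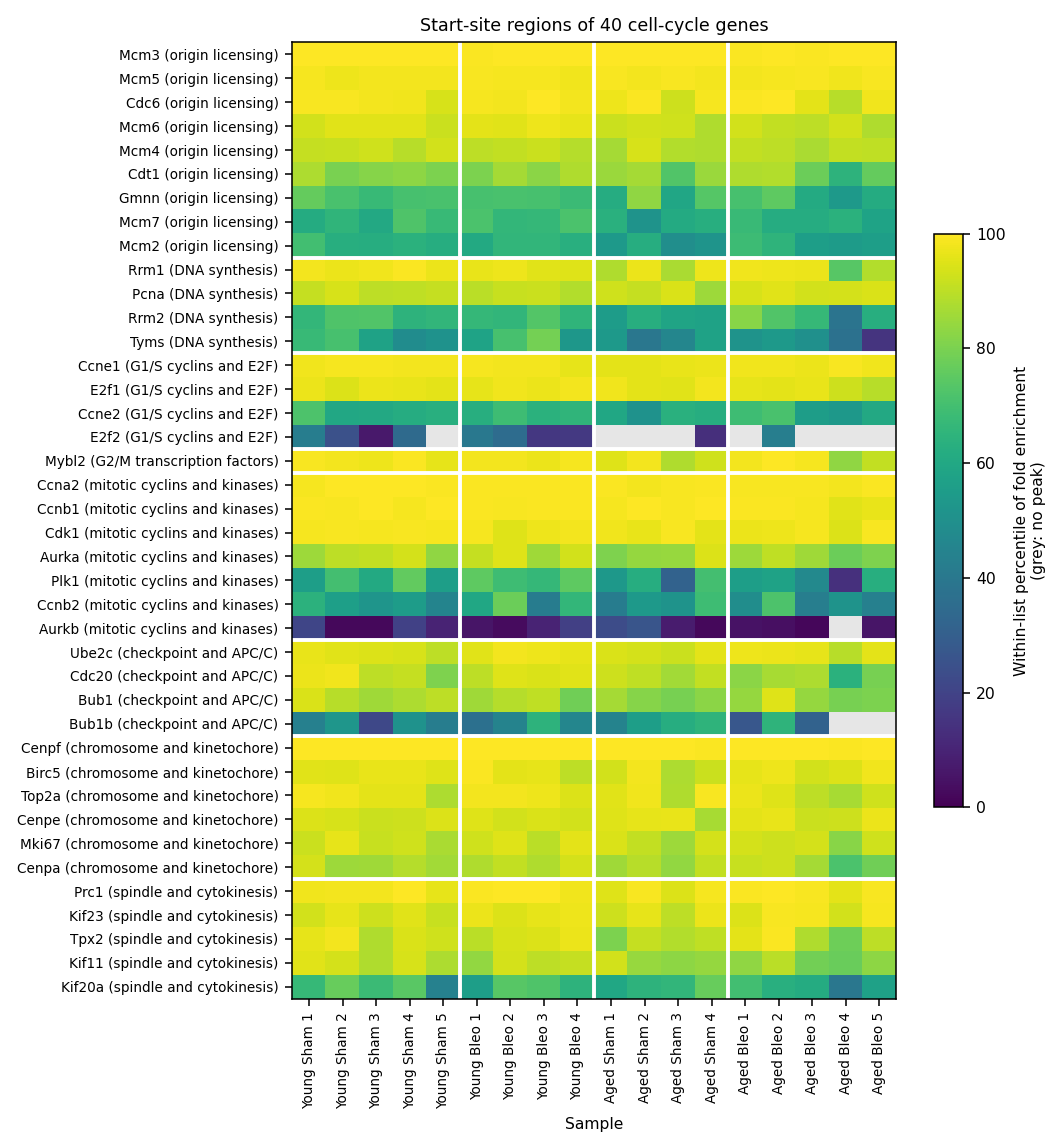
Within-list percentile of fold enrichment (colour, 0 to 100) at the start-site regions of 40 cell-cycle genes (rows, by role) in 18 samples (columns, by group), with grey for no peak. Of the 40 rows, 22 have a mean over 90, Aurkb has the lowest mean, and E2f2, Bub1b and Aurkb lack a peak in some samples.

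Of the 9 licensing genes, Mcm2 to Mcm7 encode the MCM helicase, Cdc6 and Cdt1 load it at origins and Gmnn encodes the inhibitor of Cdt1. In this group, all start-site regions were present in all lists, with a median percentile of 90.3. Mcm3, a helicase subunit, was the highest (chr1:20820005-20820641, promoter), at 99.5 to 99.9 over the 18 samples. Mcm2, another subunit of the same ring, was the lowest (chr6:88898509-88898959, promoter), at 49.4 to 69.7. With a median of 88.0 fragments at the summit over 6.29 expected from the local background, Mcm2 stood at the 76.5 percentile by fragments, above its rank by fold.

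The 4 genes of DNA synthesis spanned a wider range. Rrm1, the large subunit of ribonucleotide reductase, lay at 74.2 to 99.4 (chr7:102441497-102442049, promoter). Its lowest value was that of Aged Bleo 4. Tyms, which makes thymidylate, lay at 15.1 to 79.2 (chr5:30073220-30073808, exon), the widest range of the 4. Pcna, the sliding clamp, had a mean of 91.8 and Rrm2, the small subunit of the reductase, of 65.0. The midpoints of the Pcna, Tyms and Rrm2 regions lay 118, 111 and 156 bp past the TSS and so just outside the promoter window, which ends at 100 bp.

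Of the G1/S genes, Ccne1 (cyclin E1, which activates CDK2) was the highest, at 95.8 to 99.2 (chr7:38107305-38108095). E2f2, a transcription factor of this switch, was the lowest. At its upstream TSS (chr4:136171957-136172320) a peak was present in 4 of 5 Young Sham, 4 of 4 Young Bleo, 1 of 4 Aged Sham and 1 of 5 Aged Bleo lists, with percentiles of 6.76 to 42.7. The young and aged lists thus overlapped, and none of the 4 comparisons called this region. At its other TSS (chr4:136180016-136180844) all 18 lists had a peak, at 24.2 to 51.9. Of the G2/M transcription factors, Mybl2 lay at 83.3 to 99.7, with its lowest value in Aged Bleo 4. The start of Foxm1 fell in a region given to its neighbour Rhno1 (chr6:128362438-128363139), which had a peak in all 18 lists and a mean percentile of 80.2.

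The mitotic cyclins and kinases ranged from start sites near the top of every list to the weakest of the 40. The Ccna2 region (cyclin A2, chr3:36571820-36572513) lay at 98.3 to 99.8 in all samples, 872 bp past the RefSeq TSS at 36573038, and contained the GENCODE TSS at 36572150. Ccnb1 had a mean percentile of 99 and Cdk1 of 97.7. Aurkb (chr11:69045452-69045802), the kinase of the chromosomal passenger complex, had a peak in 17 lists at only 1.70 to 26.5. It held a median of 33.0 fragments over 6.16 expected, which was the 52.5 percentile by fragments, and 5 further regions of Aurkb lay 3.87 to 9.57 kb upstream.

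Of the checkpoint and APC/C genes, Ube2c was the highest (chr2:164769483-164770078), at 89.1 to 98.1. Bub1b, which encodes the checkpoint protein BubR1, was the lowest (chr2:118597994-118598392). It had a peak in all lists of 3 groups but in 3 of 5 Aged Bleo lists, missing in Aged Bleo 4 and 5, and its percentiles of 21.8 to 64.9 overlapped between groups. The 6 chromosome and kinetochore genes ranged from Cenpa, the centromeric histone, at a mean of 87.2 to Cenpf at 99.8, and 5 of 6 passed 90. Of the spindle and cytokinesis genes Prc1, a crosslinker of midzone microtubules, lay at 94.9 to 99.8 and Kif20a, a midzone motor, at 39.6 to 76.7. The start of Nusap1 fell in a region given to Oip5 (chr2:119618275-119618881), present in all 18 lists with a mean percentile of 89.9.

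Away from promoters the loci varied far more. Promoter windows, which reach 1000 bp before a TSS and 100 bp past it, held 37 of the 83 regions, and the other 46 belonged to 17 of the genes. These 46 included the 5 start-site regions of Pcna, Tyms, Rrm2, Gmnn and Ccna2. Of those 46, 12 had a peak in all lists, 19 in 6 to 17 lists and 15 in 2 to 5 lists. Rrm2 had 6 of them, Aurkb, Cdk1 and E2f2 had 5 each and Mki67 had 4. Their median percentile was 24.3, near the 28.7 of the 37257 such regions of all genes, and 26.1% had a peak in all lists against 25.4%. One region stood out after its values were seen, 22.4 kb downstream of Ccne1 (chr7:38084717-38085407, intergenic), at 94.7 to 99.6 in all 18 samples. In 200 bases around the summit, CAGGAAG, a core bound by ETS factors such as ERG, was found in 10 of the 43 regions that were no start site (23.3%), against 23% of all regions outside promoters. At member start sites it was found in 1 of 40 (2.50%), against 10.2% of all promoter regions.

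**Figure D2:**
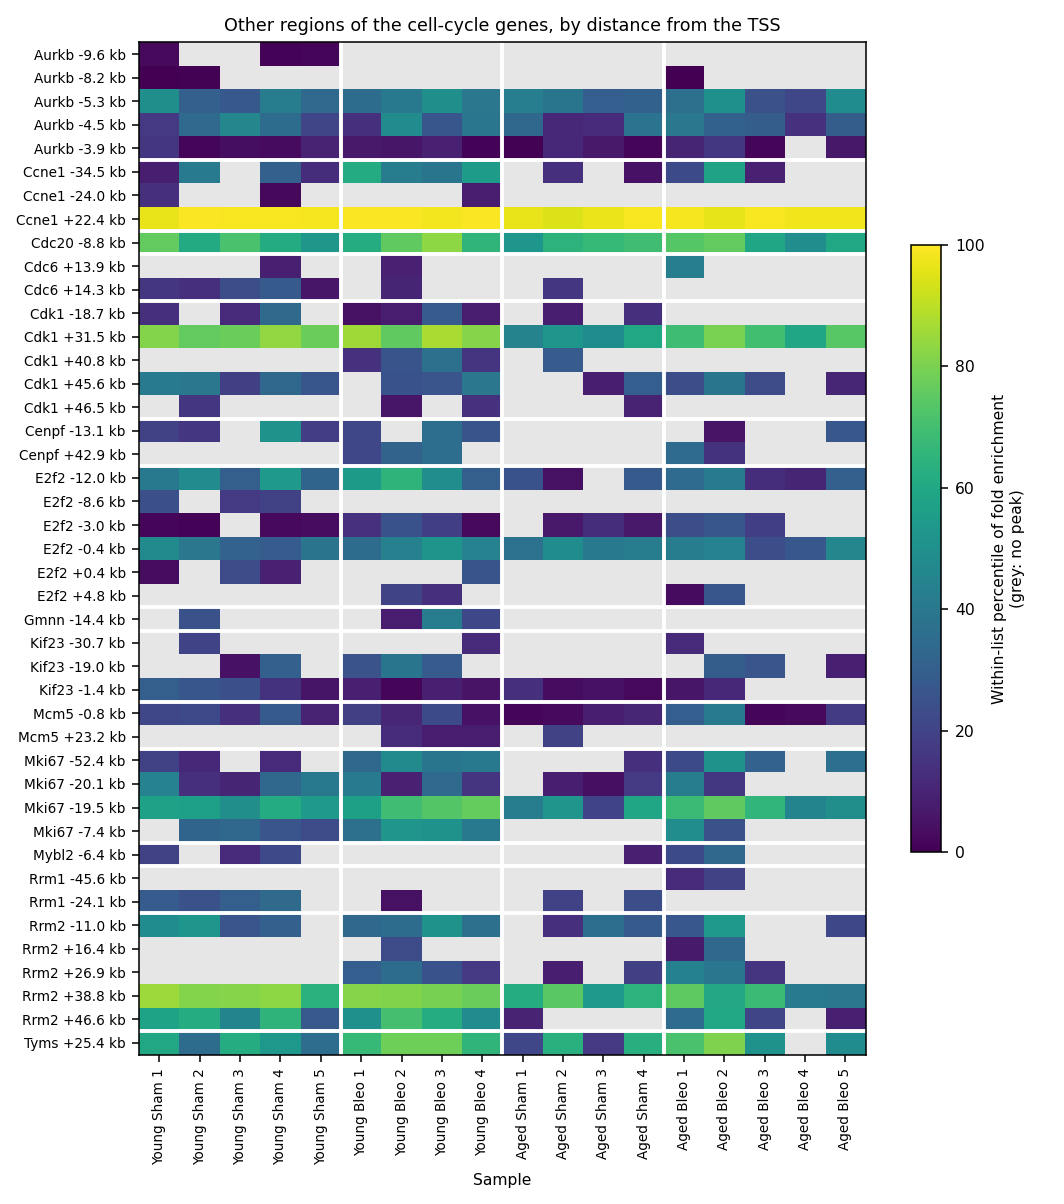
Within-list percentile of fold enrichment (colour, grey for no peak) at the 43 member regions that are no start site (rows, by gene and distance from the TSS in kb) in 18 samples (columns). Few rows are filled in all samples, and Aged Bleo 4 has the most grey cells.

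On average a Young Sham list had a peak in 66.1% ± 8.64 (SD, n = 5) of the 46 non-promoter regions. The share was 72.3% ± 7.18 (n = 4) in Young Bleo, 48.4% ± 10.9 (n = 4) in Aged Sham and 52.6% ± 18.1 (n = 5) in Aged Bleo. Single samples ran from 54.3% to 76.1% in Young Sham, 63.0% to 80.4% in Young Bleo, 37.0% to 58.7% in Aged Sham and 28.3% to 71.7% in Aged Bleo. The young and aged sham groups thus overlapped in part, and Aged Bleo covered nearly the whole range. All non-promoter regions of the genome gave 66.4%, 70.3%, 50.9% and 56.0%, each close to the members. The share moved with the number of peaks in a list, which averaged 35239 ± 3500 in Young Sham, 36699 ± 3079 in Young Bleo, 28882 ± 3383 in Aged Sham and 31093 ± 8076 in Aged Bleo. With Aged Bleo 4 left out the Aged Bleo share was 58.7%. With the 21050 strongest peaks of each list, 21 non-promoter member regions remained and the shares were 73.3%, 76.2%, 65.5% and 67.6%.

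**Figure D3:**
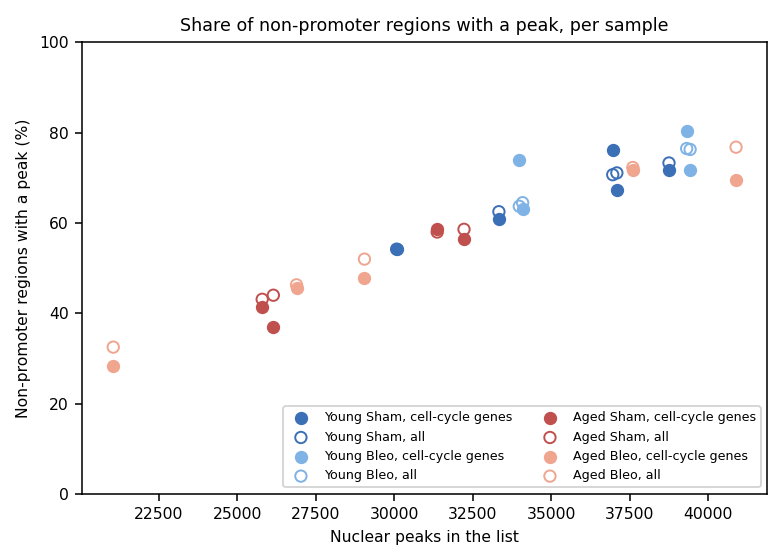
Share of non-promoter regions with a peak (y axis, %) against the number of nuclear peaks (x axis) for each of 18 samples, as filled points for the 46 regions of the cell-cycle genes and open points for all 37257 regions. Both rise with the number of peaks, from 28.3% and 32.5% in Aged Bleo 4 to 69.6% and 76.8% in Aged Bleo 2.

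To ask which loci opened or closed with age or injury, peak presence was first compared at each region by Fisher's exact test (two-sided), and an unadjusted p of at most 0.05 was called. After Benjamini-Hochberg adjustment no region passed in any comparison, and the smallest p that these groups allowed was 0.00794. No promoter region of a member was called in any of the 4 comparisons, where 1.42%, 1.31%, 1.06% and 0.357% of all promoter regions were, so fewer than 1 call among 37 would match that background.

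In Aged Sham against Young Sham, 0 members were called higher and 4 lower, where over all regions 0.264% were higher and 4.90% lower. The share of the members, 4.82%, was near that background. All 4 were non-promoter regions, where 8.70% of the 46 member regions were lower, against 5.89% of all such regions. A region 13.1 kb upstream of Cenpf, a kinetochore protein, had a peak in 4 of 5 Young Sham and 0 of 4 Aged Sham lists (chr1:189701044-189701315, intergenic). The same counts were found 7.39 kb upstream of Mki67, the gene of the proliferation marker Ki-67 (chr7:135723574-135723975, intergenic). A region 46.6 kb downstream of Rrm2 went from 5 of 5 to 1 of 4 (chr12:24754592-24755172, intergenic), as did a region 14.3 kb downstream of the start of Cdc6, a licensing factor, inside its own exon (chr11:98922263-98922627). Each had an exact p of 0.0476. Each call was lost, at an exact p of 0.107 or 0.143, when any single sample was left out, except Young Sham 3 for Cenpf, Young Sham 1 for Mki67, Aged Sham 1 for Rrm2 and Aged Sham 2 for Cdc6. With the same number of peaks per list the Rrm2 call held (exact p = 0.0476), the Cenpf call did not (1.00), and the Mki67 and Cdc6 regions were no longer among the regions. The Cdc6 call was also lost with peaks of fold enrichment of at least 5 and where peaks had to cover 50% of the region (exact p = 0.206 in both), and the Mki67 call under the latter (exact p = 0.167).

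In Young Bleo against Young Sham, 4 members were called higher and 1 lower, beside 3.98% and 1.96% of all regions. All 5 were non-promoter regions. Of the 46 such member regions 8.70% were higher and 2.17% lower, against 4.82% and 2.38% of all such regions. A region 26.9 kb downstream of Rrm2 had a peak in 0 of 5 Young Sham and 4 of 4 Young Bleo lists (exact p = 0.00794), and also in 2 of 4 Aged Sham and 3 of 5 Aged Bleo lists. A region 40.8 kb downstream of Cdk1 had the same young counts (chr10:69311908-69312245, intergenic), but was found in 1 Aged Sham list and no Aged Bleo list. These calls held with each sample left out, at exact p values up to 0.0286. Regions 42.9 kb downstream of the start of Cenpf (chr1:189644939-189645339, in its intron) and 23.2 kb downstream of Mcm5 (chr8:75132564-75132809, intergenic) were found in 0 of 5 and 3 of 4 lists. The Cdc6 region went from 5 of 5 to 1 of 4. These 3 had an exact p of 0.0476 and lost the call, at 0.107 or 0.143, without any single sample except Young Bleo 4 for Cenpf, Young Bleo 1 for Mcm5 and Young Bleo 2 for Cdc6. The Cdk1 and Mcm5 regions passed the filter of 2 lists only through Young Bleo, since only Aged Sham 2 had a peak besides. Their calls as higher in Young Bleo are therefore not independent of that filter. With the same number of peaks per list, 0 member regions were higher in Young Bleo and 1 was lower, so none of the 4 gains was called, and the Rrm2, Cdk1, Cenpf and Mcm5 regions were no longer among the regions. With fold enrichment of at least 5 the Mcm5 and Cdc6 calls were lost (exact p = 0.444 and 0.206), and with 50% cover the Cdc6 call (exact p = 0.206).

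In Aged Bleo against Young Sham, 0 members were called higher and 2 lower, beside 0.201% and 3.01% of all regions. Among non-promoter regions, 4.35% of the 46 members were lower, against 3.55% of all. The Cdc6 region was found in 5 of 5 Young Sham and 0 of 5 Aged Bleo lists (exact p = 0.00794). A region 24.1 kb upstream of Rrm1, in an intron of Stim1, was found in 4 of 5 and 0 of 5 (chr7:102417405-102417776, exact p = 0.0476). Both calls held with each sample left out, but neither region was among the regions at the same number of peaks per list. The number of members called lower rose to 6 without Young Sham 2 or without Young Sham 5. In addition, 1 member was called higher without Aged Bleo 4 or without Aged Bleo 5. In Aged Bleo against Aged Sham no member was called by Fisher's test, where 0.475% of all regions were higher and 0.410% lower, though limma called 1 by strength, described below. All 3 comparisons against Young Sham share those 5 samples.

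Strength was then compared with limma on the percentiles of the 17432 regions with a peak in all 18 lists, 46 of them members, with Benjamini-Hochberg adjustment over all 17432. In Aged Sham minus Young Sham the median difference was -1.60 points over the members and -3.62 over all regions, with 7 member regions above 0 and 39 below. It was 0.933 and 0.412 in Young Bleo minus Young Sham, -1.77 and -3.25 in Aged Bleo minus Young Sham, and 0.0390 and 0.436 in Aged Bleo minus Aged Sham. The shift of all regions depends on the scale. With percentiles taken among the 17432 regions alone it was 0.434, -0.0295, 0.343 and 0.110, and the members' medians were -0.105, 0.796, -0.290 and -0.158. The split of the calls changed with it, from 9 regions higher and 202 lower to 108 and 103 for Aged Sham, and from 232 and 1115 to 1002 and 838 for Aged Bleo against Young Sham. It went from 24 and 54 to 205 and 274 for Young Bleo against Young Sham, and from 189 and 43 to 33 and 27 for Aged Bleo against Aged Sham, so the background shares given below hold for the percentile within the whole list.

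**Figure D4:**
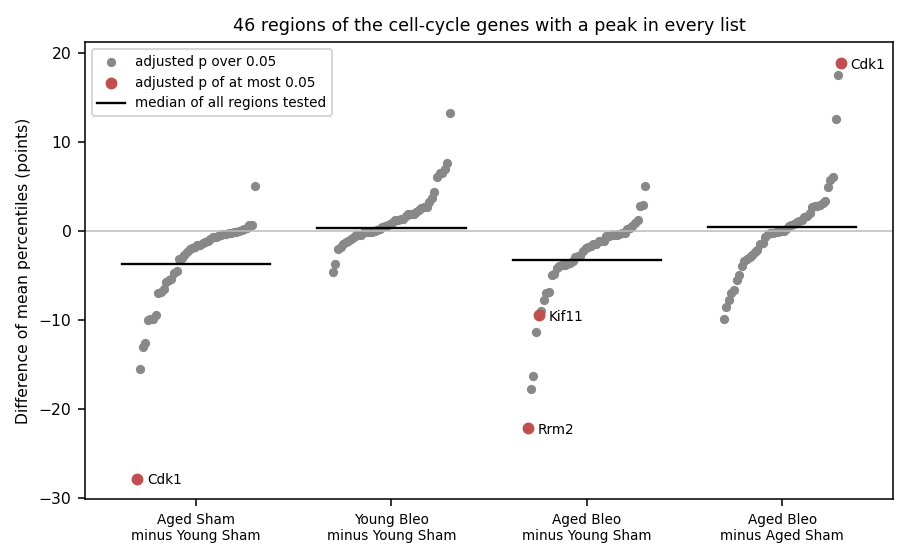
Difference of mean within-list percentiles (y axis, points) at the 46 member regions with a peak in every list, sorted within each of 4 comparisons (x axis), with the median of all 17432 regions as a black line. Red points passed an adjusted p of 0.05 in limma: Cdk1 at -27.8, Rrm2 at -22.1, Kif11 at -9.40 and Cdk1 at 18.9.

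A distal region of Cdk1 showed the largest difference among these 46 in the comparison of the sham groups. It lay 31.5 kb downstream of the TSS in intergenic DNA (chr10:69321186-69321659), and the next gene, Rhobtb1, started 108 kb away. Young Sham samples stood at 81.6, 76.0, 77.6, 83.9 and 77.6, and Young Bleo at 85.9, 75.4, 87.2 and 81.9. Aged Sham samples stood at 44.9, 52.5, 48.7 and 59.9, and Aged Bleo at 69.1, 79.9, 69.8, 58.8 and 74.2. All Aged Sham values lay below all young values, whereas Aged Bleo overlapped both. In its own unit, fold over local background, the region ran from 15.5 to 18.7 in Young Sham and from 9.40 to 11.1 in Aged Sham. The median depth at its summit was 42.5 fragments.

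In limma this region fell by 27.8 points in Aged Sham against Young Sham (SE 3.86, adjusted p = 0.00879), from 79.3 ± 3.29 (SD, n = 5) to 51.5 ± 6.39 (n = 4). It was the only member called, where 1.16% of all regions were lower. In Aged Bleo against Aged Sham it rose by 18.9 points to 70.4 ± 7.75 (SE 3.86, limma adjusted p = 0.0305), again the only member called, where 1.08% of all regions were higher. In Young Bleo against Young Sham it differed by 3.31 points (SE 3.86, limma adjusted p = 0.874). The difference between the bleomycin effects in aged and young mice was 15.6 points (SE 5.46, limma adjusted p = 0.568), so an effect particular to aged mice was not shown. The promoter of Cdk1 itself stood at 94.6 to 99.2 over all 18 samples and was not called by fold enrichment. By the percentile of fragments at the summit it differed by -3.97 points between the sham groups (limma adjusted p = 0.0364). On that scale the median difference was -4.52 points over all 17432 regions and -3.49 over the members, and 1553 regions were called lower.

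The loss in Aged Sham kept its call without any single Young Sham or Aged Sham sample, at -30.6 to -25.6 points and limma adjusted p up to 0.0377. The rise in Aged Bleo lost it without Aged Sham 1, 2 or 3 or without Aged Bleo 1, 2 or 5, with limma adjusted p up to 0.0983. The rise was also not called among equal numbers of strongest peaks or with a replicate block. Nor was it called with all regions kept, where a list without a peak counted as percentile 0. Sequencing lane was read from a code in the file names. Lane 8 held all 5 Young Sham samples and 1 Young Bleo sample, lane 7 held 3 Young Bleo and 3 Aged Sham samples, and lane 6 held 1 Aged Sham and all 5 Aged Bleo samples, so age and lane cannot be told apart between the sham groups. Within lane 7, the Aged Sham samples averaged 48.7 (44.9 to 52.5) and the Young Bleo samples 82.9 (75.4 to 87.2). Within lane 6, Aged Sham 4 stood at 59.9 and the Aged Bleo samples at 58.8 to 79.9. With lane as a covariate the loss was -31.6 points and the rise 10.5 points (limma adjusted p = 0.570 and 0.865), and none of the 17432 regions passed in any comparison.

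In Aged Bleo against Young Sham 2 members were called lower, where 6.40% of all regions were. With percentiles among the 17432 regions alone 3 were lower, the Cdc20 promoter among them. By the percentile of summit fragments, an alternative added after seeing the data, 9 of 46 were lower, beside 3933 of all 17432 regions. A region 38.8 kb downstream of Rrm2 (chr12:24746777-24747368, intergenic) fell by 22.1 points (SE 6.31, limma adjusted p = 0.0446). Young Sham samples stood at 85.4, 81.6, 81.9, 83.2 and 63.8, Young Bleo at 81.9, 80.9, 79.4 and 77.1, Aged Sham at 61.9, 74.4, 53.8 and 64.8, and Aged Bleo at 75.3, 60.4, 68.0, 41.6 and 40.2. Only Young Sham 5 among the young samples reached the aged range. The call was lost without Young Sham 1, 2, 3 or 4 or without Aged Bleo 4 or 5, with limma adjusted p up to 0.108. It was also lost with all regions kept (limma adjusted p = 0.0528) and with lane as a covariate (-27.1 points, limma adjusted p = 0.738). Between the sham groups the same region differed by -15.5 points (SE 6.69, limma adjusted p = 0.223).

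The promoter of Kif11 (chr19:37375874-37376570) fell by 9.40 points (SE 2.74, limma adjusted p = 0.0480) in the same comparison. Young Sham samples stood at 95.5, 93.7, 88.0, 94.1 and 87.7 and Aged Bleo at 83.5, 89.5, 78.7, 77.1 and 83.1, so that Aged Bleo 2 alone overlapped Young Sham. The call was lost when any of Young Sham 1 to 4 or Aged Bleo 1, 3, 4 or 5 was left out, with limma adjusted p up to 0.112, and the difference was -4.48 points with lane as a covariate (limma adjusted p = 0.881). The call was also lost, narrowly, among equal numbers of strongest peaks, on the quantile-normalised log2 scale and with all regions kept (limma adjusted p = 0.0526, 0.0578 and 0.0635). Aged Sham values, 93.3, 84.4, 83.2 and 84.2, overlapped both, and the difference between the sham groups was -5.52 points (limma adjusted p = 0.314). The Cdc20 promoter (chr4:118437143-118437802) was next, at 91.4 ± 6.82 (SD, n = 5) in Young Sham and 80.1 ± 9.76 (n = 5) in Aged Bleo. Its difference of -11.3 points (SE 4.03) did not pass (limma adjusted p = 0.0964). It was -7.19 without Aged Bleo 4, which stood at 63.7, and passed without Young Sham 5, at -13.9 (limma adjusted p = 0.0435).

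**Figure D5:**
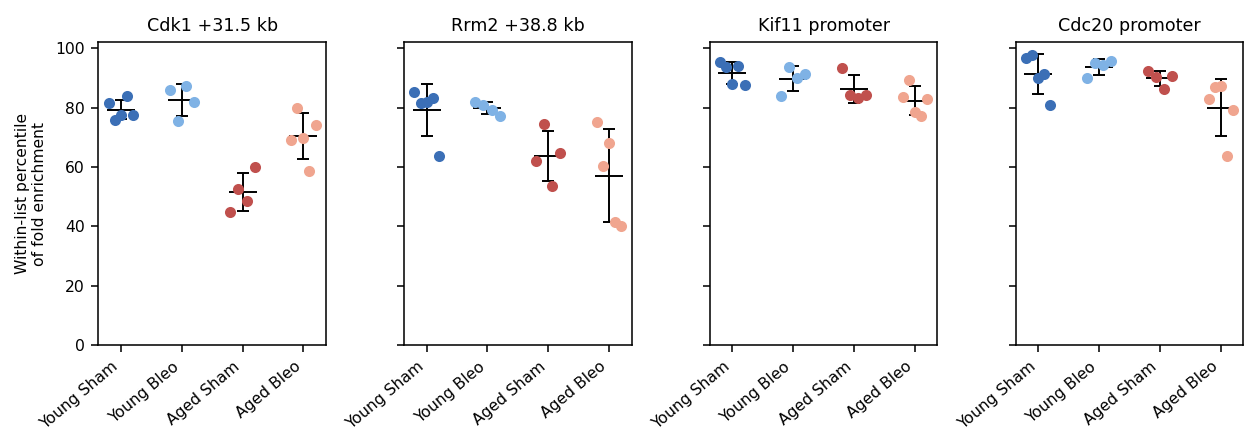
Within-list percentile of fold enrichment (y axis, 0 to 100) of each sample at 4 member regions, by group (x axis), with the mean and SD in black. At the Cdk1 region 31.5 kb from the TSS, Aged Sham lies between 44.9 and 59.9, under all young samples, and at the Kif11 and Cdc20 promoters the groups overlap.

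In Young Bleo against Young Sham limma called no member, where 0.447% of all regions were called in either direction, and 0 of the 46 had an unadjusted p under 0.05 against 10.5% of all regions. That share depends on the scale. It was 4.35% against 17.4% with percentiles among the 17432 regions alone, and 6.52% against 12.4% by summit fragments. By the percentile within the whole list, the smallest p values belonged to a region 19.5 kb upstream of Mki67 (chr7:135735587-135736120, intergenic) and to the promoters of Ube2c and Kif23. The Mki67 region stood at 55.7 ± 4.45 (SD, n = 5) in Young Sham, 69.0 ± 8.64 (n = 4) in Young Bleo, 43.2 ± 16.8 (n = 4) in Aged Sham and 60.8 ± 13 (n = 5) in Aged Bleo. Its differences of 13.3 points in the young (SE 7.31) and 17.6 in the aged (SE 7.31) did not pass (limma adjusted p = 0.577 and 0.262), and were 20.8 and 2.16 with lane as a covariate. At the promoters of Ube2c and Kif23, a kinesin of cytokinesis, bleomycin differed from sham by 2.71 and 2.68 points in young mice (SE 1.77 each, limma adjusted p = 0.671 and 0.675). The test of the difference between ages called no member, where 0.00574% of all regions passed, and 1 of 46 (2.17%) had an unadjusted p under 0.05 against 6.81% of all regions.

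Between the sham groups, Mcm2 had the next smallest p among the members after the Cdk1 region. It stood at 69.7, 62.7, 62.4, 63.9 and 62.2 in Young Sham and at 53.6, 62.2, 49.4 and 51.9 in Aged Sham, so that only Aged Sham 2 touched the young range. Its difference of -9.89 points (SE 3.11) did not pass (limma adjusted p = 0.112). It was -3.39 points with percentiles among the 17432 regions and -2.59 among equal numbers of strongest peaks (limma adjusted p = 0.699 and 0.819). E2f1, a transcription factor of S phase entry, differed by 1.09 points between Young Bleo and Young Sham and by -2.94 between Aged Bleo and Aged Sham (limma adjusted p = 0.909 and 0.389).

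A selection of the intergenic sequences that carry these differences is printed, as 200 bases of the plus strand of GRCm38 (mm10) around the median summit. Capitals mark TGANTCA (AP-1), CAGGAAG (ETS), TGTTTAC (forkhead) or CCAAT on either strand, which were found in 10.2%, 23%, 5.23% and 22.2% of all non-promoter windows of this length. The first (chr10:69321301-69321500) is the Cdk1 region that was lower in Aged Sham, and it held CTTCCTG, the other strand of CAGGAAG. The second (chr12:24746937-24747136) is the Rrm2 region that was lower in Aged Bleo. The last (chr12:24735030-24735229) is the Rrm2 region found in all Young Bleo and no Young Sham lists, and it held TGACTCA. The Cdk1 region 40.8 kb downstream, with the same young counts, is not printed, and its window held CAGGAAG but no TGANTCA.
Cdk1 31.5 kb downstream: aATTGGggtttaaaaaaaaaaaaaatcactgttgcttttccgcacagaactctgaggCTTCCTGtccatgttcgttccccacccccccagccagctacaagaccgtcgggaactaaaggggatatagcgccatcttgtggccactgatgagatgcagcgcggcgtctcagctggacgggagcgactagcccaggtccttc
Rrm2 38.8 kb downstream: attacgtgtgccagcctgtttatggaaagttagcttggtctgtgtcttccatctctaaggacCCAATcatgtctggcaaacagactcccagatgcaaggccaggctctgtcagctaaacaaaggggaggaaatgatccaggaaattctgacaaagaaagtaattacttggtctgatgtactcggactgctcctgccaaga
Rrm2 26.9 kb downstream: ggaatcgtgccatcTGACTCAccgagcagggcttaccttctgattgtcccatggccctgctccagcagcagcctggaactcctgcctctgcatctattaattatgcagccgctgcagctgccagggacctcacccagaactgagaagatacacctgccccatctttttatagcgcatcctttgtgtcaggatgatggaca

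A second list, of 46 other cell-cycle genes such as Cdk2, Rb1 and Wee1, was read for comparison. Regions were found for 42 of them, 119 in all, and 37 of 41 start-site regions had a peak in all lists, with a median percentile of 85.8. No start-site region was found for E2f8, Lin52, Orc1, Cdca8 and Incenp. By Fisher's test at an unadjusted p of at most 0.05, 0 of the 119 were higher and 6 lower in Aged Sham, 5 higher and 3 lower in Young Bleo, and 0 higher and 3 lower in Aged Bleo, each against Young Sham. Over all regions 0.264% and 4.90%, 3.98% and 1.96%, and 0.201% and 3.01% were called, so these counts were near the background. None was called in Aged Bleo against Aged Sham.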

How the data were processed

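Members and gene lists were chosen with earlier results of these data known. Per the study's methods the authors mapped the Omni-ATAC-seq reads with BWA (genome build mm10), removed duplicates with Picard and called peaks per sample with MACS2 at an FDR of 1%. Deposited for each peak are its position, a score (a rescaled −log10 q, not used), a fold enrichment over local background (a ratio within the library), −log10 p, −log10 q and the summit's offset. The deposited values are not scaled between lists, and the authors' DiffBind test on reads was not repeated. Read totals were not used here. Fragments at the summit were solved from fold and p and came out whole, within 0.05, for at least 99.985% of peaks of every list.

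Only peaks on chromosomes 1 to 19, X or Y entered, without 19 mitochondrial peaks. Regions were annotated by midpoint with 45756 RefSeq transcripts. Groups came from the sample labels. Presence was compared by two-sided Fisher's exact tests (scipy 1.17.1) and percentiles by limma 3.58.1 in R 4.3.3, in 1 fit of all 4 groups with Benjamini-Hochberg adjustment over all regions. Genes named are the highest and lowest start site of each role, those called by Fisher's test, the 3 smallest limma p values of each comparison and members without a promoter region. Alternatives were stricter peaks, equal numbers of peaks, regions in at least 3 lists, 50% cover, promoter overlap, a promoter of 2 kb, other scales, all regions, lane, a replicate block and each sample left out. The percentile of summit fragments and the use of start-site regions were added after seeing the data. So was the choice of letters searched. Python 3.11.15 with numpy 2.4.6, pandas 2.3.3 and statsmodels 0.14.6 did the rest. Each list is 1 mouse, and precision is limited by 4 or 5 mice a group. The whole CD31+ population was pooled, so subtypes cannot be told apart.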

Additional observations from a re-analysis of the deposited data

Results flagged for a closer look

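A gap test, which flags about 1 in 20 groups by chance, was applied to the summaries over the members and to the regions first in order of p in each limma comparison, and the other member regions were not gone through. In those, 4 values lay far from the rest of their group. Mcm2, the helicase subunit, stood at the 69.7 percentile in Young Sham 1 (median of the other 4 samples 62.5). The Rrm2 region 38.8 kb downstream stood at 63.8 in Young Sham 5 (others 82.6). The Kif11 promoter stood at 93.3 in Aged Sham 1 (others 84.2) and the Ube2c promoter at 89.1 in Aged Bleo 4 (others 96.6), the list with the fewest peaks.

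At the E2f1 promoter the bleomycin difference was 1.09 points in young and -2.94 in aged mice, a difference of -4.03 points. Every Young Bleo sample lay above the Young Sham mean and every Aged Bleo sample below the Aged Sham mean, but limma's test of the difference did not pass (adjusted p = 0.765). Aged Bleo 4 and 5 were the lowest, at 92.2 and 89.1.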

How the results depend on the processing

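Of the results for single regions, 317 kept direction and side of the threshold under an alternative, 95 lost the call, 3 gained it and 0 reversed. Calls whose region was no longer among the regions under an alternative are not in this tally. Of the counts and shares over the members, 127 stayed near the main value and 58 moved. By Fisher's exact test, Aged Bleo against Aged Sham gave 1 region with fold enrichment of at least 5. With the same number of peaks per list (57 member regions), the calls against Young Sham numbered 2 for Aged Sham (1 higher, 1 lower), 1 for Young Bleo (0 higher, 1 lower) and 1 for Aged Bleo (lower), those of Aged Bleo against Aged Sham 1 (lower), and the Aged Sham share was 65.5%. Regions that overlap a member promoter window (44) gave 0, 0 and 0 against Young Sham. With 1 sample left out, the calls against Young Sham ran from 0 to 1 for Aged Sham, from 2 to 3 for Young Bleo and from 2 to 6 for Aged Bleo.

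In limma, Aged Sham minus Young Sham gave 2 members with all regions kept (1241 of 47338 regions lower), the Cdk1 region 31.5 kb (-27.8 points, limma adjusted p = 0.00174) and the Rrm2 region 46.6 kb downstream (-49.1, 0.0198), 2 by summit fragments (1553 of 17432 lower) and 0 with lane as a covariate. Young Bleo minus Young Sham gave 2 with all regions kept (772 of 47338 higher), the Cdk1 region 40.8 kb downstream (23 points, limma adjusted p = 0.0299) and the Mki67 region 52.4 kb upstream (31.5, 0.0341). With all regions kept, a list without a peak counted as percentile 0. Differences at regions that lacked a peak in some lists therefore mix peak presence with strength. The Cdk1 region 40.8 kb downstream also passed the filter on lists only through Young Bleo. Aged Bleo minus Young Sham gave 1 among equal numbers of strongest peaks, 1 on the log2 scale, 0 with lane, 9 of 46 by summit fragments (an alternative chosen after seeing the data, with 3933 of all 17432 regions lower) and 0 to 3 with 1 sample left out. With all regions kept it gave 3, the Rrm1 region 24.1 kb and the Kif23 region 1.39 kb upstream and the Cdc6 region 14.3 kb downstream, and neither the Rrm2 nor the Kif11 call (limma adjusted p = 0.0528 and 0.0635). Aged Bleo minus Aged Sham gave 0 among the strongest peaks, 0 with all regions kept, 0 with lane and 0 to 1 with 1 sample left out. The causes were not tested.

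With a replicate block, Aged Bleo minus Young Sham gave 1 member and Aged Bleo minus Aged Sham 0. Cdk1 kept its call in Aged Sham (-27.5 points, limma adjusted p = 0.0283) and Rrm2 in Aged Bleo (-22.1, 0.0267), whereas Kif11 (0.0638) and the Cdk1 rise (18.6, 0.108) did not pass. Same-numbered samples did not vary together on average. Their mean correlation was 0.025 over 25 pairs (-0.26 to 0.36), against -0.0055 over 96 others (-0.33 to 0.36). Whether an equal number marks a shared batch was not tested. Cdc20 passed among the 17432 regions alone (-16.2, limma adjusted p = 0.0457) and by summit fragments (-11.0, 0.0300). Lists give no read totals, and a peak missed at low depth looks like a closed site.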
